A study of Mus musculus with 222 samples.

Results

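The comparison set 20 mammary tumors of F1BX mice against 5 normal mammary glands of MMTV-ErbB2 mice, and described what separated a tumor from a gland that already carried the transgene. The tumors were those labelled F1BX whose array had an interquartile range of its log2 values under 2.8. They were 20 of the 160 F1BX arrays and of the 222 arrays of the series. This range was 2.33 to 2.62 in the 20 tumors and 1.86 to 2.36 in the 5 glands, and the nearest F1BX array above the limit had 3.07. The tumors were thus chosen by the spread of their own arrays, which is given as a description. The other 140 F1BX arrays lay in a set with a wider spread that held none of the glands.

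F1BX mice came from transgene-positive F1 males (C57BL/6 crossed with FVB) mated to FVB females, so their genetic background varied from mouse to mouse. The glands were 3 from FVB and 2 from F1 mice. Both tumors and glands carried ErbB2 driven by the mouse mammary tumor virus promoter, which is active in mammary epithelium. The mice followed for tumors were female, and no source used here gives the ages of the gland donors or the way glands were collected. By their names the tumors came from 20 mice. Nothing says that the glands came from separate mice, so p-values measure only the spread between these arrays, which may be technical. Tumor and backcross background cannot be told apart, because no gland was from an F1BX mouse. The values of 3 F1 glands labelled wild type, which lack the transgene, are given beside some results.

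ERBB2 is a receptor tyrosine kinase with no known ligand of its own. It signals in dimers, above all with ERBB3, and feeds the RAS-ERK and PI3K-AKT pathways. Mammary epithelium has a luminal layer, which includes progenitor and hormone-sensing cells and makes milk, and a basal layer of contractile myoepithelial cells. A whole gland also holds fat, fibroblasts, vessels, immune cells and often a lymph node. In bulk tissue, fewer cells of a type and less RNA per cell cannot be told apart.

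One gland stood apart. In FVB gland 3, 12423 of 35556 probe sets lay at least 2-fold from the mean of the other 4 glands, whereas the number was 597 to 1288 in each of those 4. Its median correlation with the other glands across probe sets was 0.78, against 0.98 for each of them. Each result was therefore computed with all 5 glands and with the 4 others. The value with 4 glands is printed where it changed a call or moved the fold by over 1.5 times, and every other gene called below was also called with 4. Levels are log2 values, so that a difference of 1 is a 2-fold change. A probe set was called when limma gave a false discovery rate (Benjamini-Hochberg) of at most 0.005 and the fold was at least 2, the limits named in the methods of the study.

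With 5 glands, 4258 probe sets (12%) were called, 2644 (7.44%) higher and 1614 (4.54%) lower in tumors. With 4 glands the number was 4006 (11.3%), with 1999 (5.62%) higher and 2007 (5.64%) lower. Both fits called 3322 probe sets, which were 78.0% of the first and 82.9% of the second, all in the same direction. Over 19938 genes with 1 probe set each, 9.44% were called higher and 5.18% lower with 5 glands, and 7.59% and 6.19% with 4. These shares are the background for the counts of genes below. A fit with weights estimated by group called 2325 probe sets (6.54%) with 5 glands, 3.91% of all probe sets higher and 2.63% lower. Its weights there were 1.33 for each tumor and 0.316 for each gland, which let glands vary more than tumors. With 4 glands the weights were estimated anew, and 4093 probe sets were called, against 4006 without weights. A call kept with weights and 4 glands is thus not shown to hold when glands vary more. This fit is called the weighted fit below, and the calls it left are given for the main lists. Of the 29 genes described with all their values below, it did not call Erbb2, Erbb3, Elf5, Kit, Tc2n, Car6, Ptgs2, Glycam1, Dcn and Cdh5 with 5 glands, and it called all 29 with 4.

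The tumors had more ERBB2 and ERBB3 message than the transgenic glands. Erbb2 had a lowest value of 8.32, a median of 12.30 and a highest of 12.60 in the 20 tumors. It was 10.14, 9.05 and 10.20 in the FVB glands and 9.78 and 10.49 in the F1 glands. In 18 tumors it lay above every gland, in 1 within the range of the glands and in 1 below it. The mean was 11.995 ± 0.99 in tumors (SD, n = 20) and 9.93 ± 0.55 in glands (SD, n = 5), or 4.18-fold (log2 fold change 2.06, standard error 0.44, limma adjusted p = 0.00043, exact p = 0.00173, two-sided permutation test). With 4 glands the log2 fold change was 2.13 (limma adjusted p = 0.00101). The weighted limma fit gave an adjusted p of 0.0778 with 5 glands and 0.000511 with 4. The 3 wild type glands lay lower than the transgenic ones, at 8.27 to 8.35. Whether the probes read the transgene, the mouse gene or both was not tested.

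Erbb3, the main partner of ERBB2, had a lowest value of 6.22, a second lowest of 11.34, a median of 11.61 and a highest of 11.93 in tumors. It was 8.71, 9.01 and 8.58 in the FVB glands and 8.50 and 9.93 in the F1 glands. It exceeded every transgenic gland in 19 of the 20 tumors (log2 fold change 2.37, standard error 0.53, limma adjusted p = 0.000727, exact p = 0.00339), and with 4 glands the limma adjusted p was 0.00309. The wild type glands had Erbb3 at 10.34, 10.87 and 9.915, higher than most of the transgenic glands and below the second lowest tumor. Grb7, an adaptor gene next to Erbb2 in the genome, was called at 1.01 and fell just short of the fold without F1 gland 1 (0.89), FVB gland 1 (0.94) or FVB gland 2 (0.99). Of the 6 genes of the list of ERBB receptors and neighbors of Erbb2, 3 were called higher, and 0 of the 6 in the weighted fit with 5 glands. Mien1, another neighbor, missed the fold at 0.89. Egfr had -0.66 (limma adjusted p = 0.0583) with 5 glands and was called lower with 4, at -1.10 (0.000203). Erbb4 was not called (0.50, limma adjusted p = 0.41). Of 8 ligand genes of the EGF and neuregulin families, 1 was called, and it was lower: Hbegf, at -1.54. Betacellulin (Btc) missed the fold at 0.61.

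Genes known as outputs of ERK signaling divided. Of 14 measured, 5 were called higher and 1 lower, with a median log2 fold change of 0.69, beside -0.09 over all genes. The ETS factor gene Etv5 ranged over 8.40 to 11.25 in tumors, with a median of 10.90. It was 6.90, 7.04 and 7.76 in the FVB glands and 7.14 and 7.44 in the F1 glands, so every tumor lay above every gland (log2 fold change 3.35, standard error 0.33, limma adjusted p = 7.81e-09, exact p = 3.76e-05). That exact p is the smallest that 53130 arrangements of 25 arrays allow. Over the 29 genes tested in this way, exact p-values adjusted by Benjamini-Hochberg were 6.42e-05 to 0.00339. These genes were chosen with earlier results of these data known, and the adjustment does not account for that choice. Etv1, a relative of Etv5, was higher by 3.83. Dusp6, a phosphatase gene whose product inactivates ERK, ranged over 10.69 to 12.51 in tumors, with a median of 11.89. Its values were 8.997, 8.56 and 8.36 in the FVB glands and 9.24 and 9.50 in the F1 glands, again with no overlap (log2 fold change 2.87, standard error 0.25, limma adjusted p = 1.1e-09, exact p = 3.76e-05).

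Ccnd1, which encodes cyclin D1 and drives entry into the cell cycle, ranged over 10.00 to 12.77 in tumors, with a median of 11.69. It was 8.49, 8.43 and 8.83 in the FVB glands and 8.49 and 9.17 in the F1 glands. Every tumor was higher than every gland (log2 fold change 3.01, standard error 0.31, limma adjusted p = 1.46e-08, exact p = 3.76e-05). Spred1, an inhibitor of the pathway, was called only with 5 glands, at 1.01, and was 0.70 with 4. The phosphatase gene Dusp5 was lower at -1.16. Myc was -0.85 with 5 glands (limma adjusted p = 0.0193) and was called lower with 4, at -1.31. With 4 glands the list had 4 genes higher and 2 lower.

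Among 12 components of PI3K, AKT and mTOR signaling, 3 were called higher. They were the kinase genes Akt1 (1.21) and Pik3cb (1.15) and the regulatory subunit gene Pik3r1 (1.30), of which Pik3r1 was lost with 4 glands (0.90). Pik3cb averaged 10.08 in tumors and was 10.15, 10.86 and 10.10 in the wild type glands. For Akt1 the wild type glands were at 9.28 to 9.70 and the tumor mean at 10.40. For Pik3r1 they were at 10.61 to 10.845 and the tumor mean at 11.28. Rictor, a subunit of the mTORC2 complex, was -0.58 (limma adjusted p = 0.0614) and was called lower with 4 glands, at -1.03. Deptor, an inhibitor of mTOR kinase, rose by 3.32. Of 14 other receptor tyrosine kinases, 3 were higher and 2 lower. Kit, the receptor of stem cell factor, rose by 2.49 and the collagen receptor gene Ddr1 by 1.19. Ddr1 averaged 9.21 in tumors and was 9.355, 9.55 and 8.84 in the wild type glands. Kit averaged 12.12 in tumors and was 10.01 to 10.48 in the wild type glands. Insr, the insulin receptor, rose by 1.37 with 5 glands and missed the fold with 4 (0.87) and in its other probe set (0.93). Pdgfra, a receptor of fibroblasts, was lower at -2.63 and was lost without any 1 of the glands other than FVB gland 3 (limma adjusted p = 0.00579 to 0.0068). The receptor gene Axl was lower at -1.93.

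**Figure D1:**
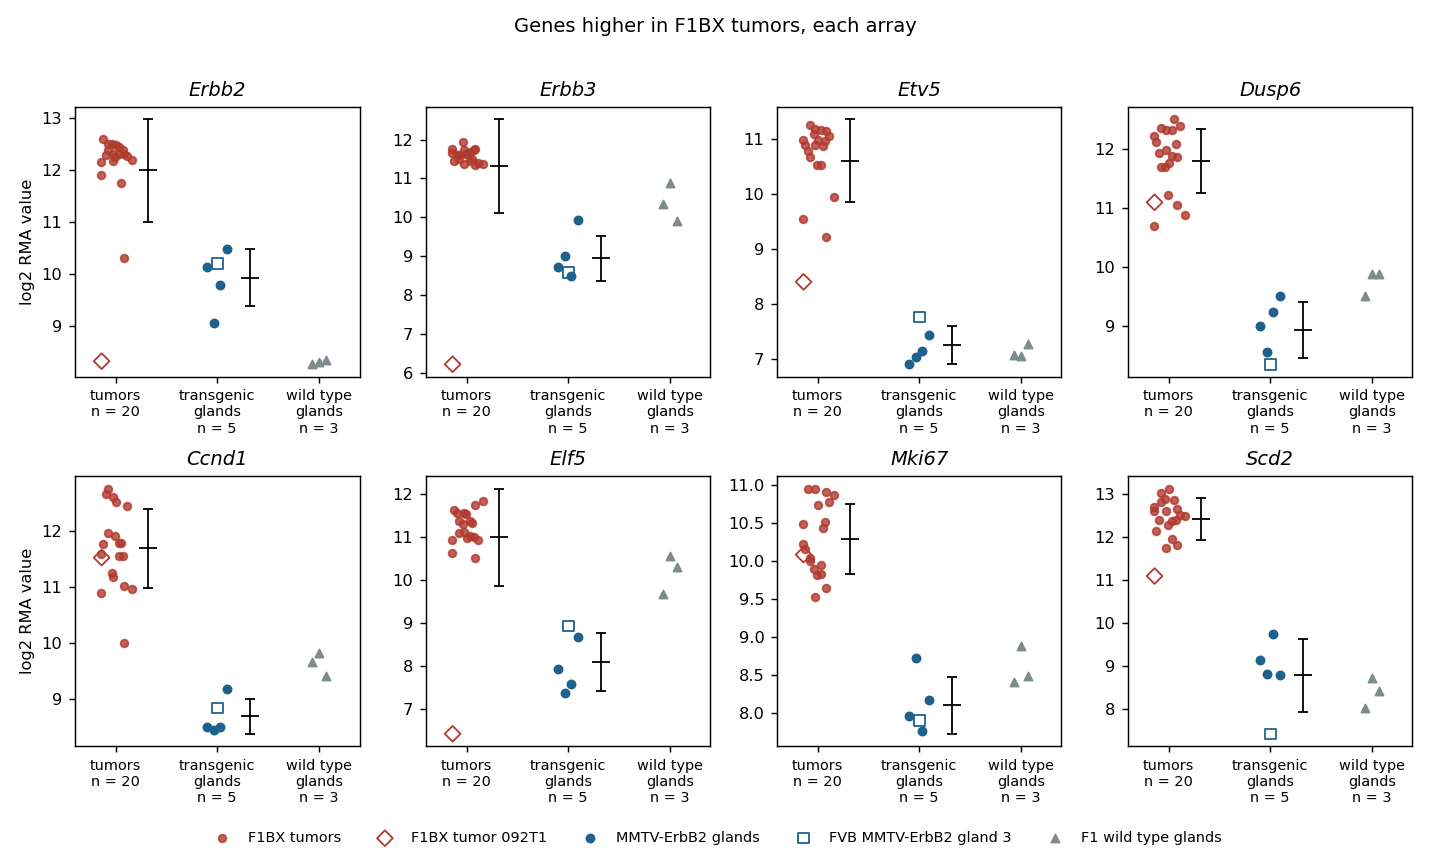
Log2 value (y axis) of 8 genes in each of 20 F1BX tumors, 5 MMTV-ErbB2 glands and 3 F1 wild type glands (x axis), with bars for mean and SD of tumors and transgenic glands. Etv5, Dusp6, Ccnd1, Mki67 and Scd2 are above every transgenic gland in all 20 tumors, whereas 092T1 (diamond) has 8.32 for Erbb2, 6.22 for Erbb3 and 6.42 for Elf5, below every transgenic gland.

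Genes of the cell cycle rose together. Of 19 measured genes for the cell cycle and mitosis, 16 were called higher and 0 lower with 5 glands, as with 4, and 15 were higher in every tumor than in every gland (over all probe sets this held for 5.7%). The median log2 fold change of the list was 1.85, and 15 were called in the weighted fit. Mki67, the proliferation antigen gene, ranged over 9.52 to 10.95 in tumors, with a median of 10.19. It was 7.96, 8.72 and 7.90 in the FVB glands and 7.76 and 8.16 in the F1 glands (log2 fold change 2.19, standard error 0.22, limma adjusted p = 7.47e-09, exact p = 3.76e-05). The spindle genes Tpx2 and Kif11 rose by 2.87 and 2.68. Topoisomerase Top2a rose by 2.35, and its other probe set missed the fold at 0.90. Cdk1 rose by 1.63, Ccnb2 (cyclin B2) by 1.85 and the mitotic kinase gene Plk1 by 2.02. The 3 genes not called were Birc5 (0.30, limma adjusted p = 0.154), Cdc20 (0.35, 0.0614) and Ccne1 (-0.06, 0.769; 0.19 with 4 glands).

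Of 15 genes for DNA replication, 8 were called higher and 0 lower, with a median of 1.04. Rrm2, a subunit of ribonucleotide reductase, ranged over 8.95 to 11.44 in tumors, with a median of 9.93. It was 6.54, 6.83 and 6.16 in the FVB glands and 6.83 and 6.99 in the F1 glands, with no overlap (log2 fold change 3.24, standard error 0.34, limma adjusted p = 2.21e-08, exact p = 3.76e-05). Rrm1, the other subunit, rose by 2.22 and the helicase gene Mcm6 by 1.42. Pcna was called with 5 glands (1.09) and not with 4 (0.54). Among 10 cell cycle inhibitors and p53 targets, 2 were called higher, Cdkn2c (1.52) and Ccng1 (1.65), and neither was called with 4 glands, where they were 1.39 and 0.95.

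The promoters of these mitotic genes were searched for TTTGAA (or TTCAAA, its reverse complement), the core of the element known as CHR, in windows from 250 bases before to 50 bases after each gene start (RefSeq, build GRCm38.p6). It was found for 10 of the 14 list members with a window, and for 20.23% of all 27025 genes with a window (17.89% of 32851 windows). A match is a description of these letters only. The windows of 3 members that rose and held a match are shown as examples, with matches on either strand in capitals.
Plk1 (chr7:122159185-122159484, plus strand): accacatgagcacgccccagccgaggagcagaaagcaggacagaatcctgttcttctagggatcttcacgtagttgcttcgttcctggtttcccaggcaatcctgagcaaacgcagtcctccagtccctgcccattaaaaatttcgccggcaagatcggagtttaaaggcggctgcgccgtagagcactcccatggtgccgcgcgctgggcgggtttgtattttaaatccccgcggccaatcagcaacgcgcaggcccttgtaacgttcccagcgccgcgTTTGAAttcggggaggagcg
Ccnb2 (chr9:70421505-70421804, minus strand): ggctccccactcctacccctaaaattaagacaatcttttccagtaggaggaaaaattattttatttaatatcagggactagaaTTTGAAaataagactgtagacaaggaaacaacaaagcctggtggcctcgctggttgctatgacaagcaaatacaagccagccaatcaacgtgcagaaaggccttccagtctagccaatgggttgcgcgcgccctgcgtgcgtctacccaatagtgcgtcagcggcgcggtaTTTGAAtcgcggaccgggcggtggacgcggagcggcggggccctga
Kif11 (chr19:37376132-37376431, plus strand): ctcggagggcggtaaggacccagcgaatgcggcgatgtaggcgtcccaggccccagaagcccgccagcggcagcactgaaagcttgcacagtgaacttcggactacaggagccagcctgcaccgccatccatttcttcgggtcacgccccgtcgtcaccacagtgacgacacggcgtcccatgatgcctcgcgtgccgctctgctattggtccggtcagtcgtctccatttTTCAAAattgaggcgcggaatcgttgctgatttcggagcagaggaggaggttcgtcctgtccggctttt
There was 1 match in the window of Plk1, 2 in that of Ccnb2 and 1 in that of Kif11, genes that rose by 2.02, 1.85 and 2.68 in that order.

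Some luminal progenitor genes were high in the tumors other than 092T1. Elf5, a factor of luminal progenitor and alveolar cells, had a lowest value of 6.42, a second lowest of 10.52, a median of 11.21 and a highest of 11.83 in tumors. It was 7.93, 7.37 and 8.93 in the FVB glands and 7.58 and 8.67 in the F1 glands, below 19 of the 20 tumors (log2 fold change 2.90, standard error 0.50, limma adjusted p = 3.96e-05, exact p = 0.000565). The wild type glands had Elf5 at 9.67, 10.55 and 10.31, above every transgenic gland. Kit, which also marks progenitors, had a lowest value of 8.00, a median of 12.25 and a highest of 13.36 in tumors, against 9.94, 9.78 and 7.68 in the FVB glands and 10.19 and 10.59 in the F1 glands. It was above every gland in 19 tumors (log2 fold change 2.49, standard error 0.50, limma adjusted p = 0.000227, exact p = 0.00207). Prom1, another progenitor marker, rose by 1.49. Cd14, a lipopolysaccharide co-receptor, was lower at -1.53. Of the 9 genes of this list, 3 were called higher and 1 lower, and without 092T1 the counts were 6 and 1. The weighted fit called 0 with 5 glands and 4 with 4. The mean level of this list was 7.35 to 11.32 in tumors, with a median of 10.91. It was 9.08 to 10.21 in the 4 glands, 9.54 in FVB gland 3 and 10.58 to 10.96 in the wild type glands.

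Gata3, a factor of luminal cells, ranged over 9.26 to 12.07 in tumors, with a median of 10.98. It was 9.13, 8.52 and 8.45 in the FVB glands and 8.88 and 9.40 in the F1 glands, and 19 tumors lay above every transgenic gland (log2 fold change 2.13, standard error 0.28, limma adjusted p = 8.27e-07, exact p = 7.53e-05). The wild type glands had Gata3 at 10.37, 10.99 and 10.25, within the range of the tumors. The progesterone receptor gene Pgr ranged over 5.90 to 6.46 in tumors, with a median of 6.09. It was 6.57, 7.42 and 7.36 in the FVB glands and 7.02 and 7.83 in the F1 glands, so every tumor was below every gland (log2 fold change -1.13, standard error 0.12, limma adjusted p = 2.02e-08, exact p = 3.76e-05). Without F1 gland 2 it missed the fold, at -0.98. These were the 2 genes called among 7 of hormone-sensing cells.

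Among 14 luminal keratin and junction genes, 4 rose. They included Cldn3 (2.11) and Cldn7 (1.70), which encode tight junction claudins, and Esrp1 (2.45), an epithelial splicing factor, and 0 passed in the weighted fit with 5 glands. The mean level of this list was 7.78 to 10.83 in tumors, with a median of 10.16. It was 9.135 to 10.08 in the 4 glands, 9.55 in FVB gland 3 and 10.54 to 11.10 in the wild type glands. In the wild type glands Cldn3 was 10.25 to 11.08, Cldn7 8.32 to 9.37 and Esrp1 9.84 to 10.58. The keratin genes Krt8 and Krt18 had differences of 0.28 and 0.28 (limma adjusted p = 0.0752 and 0.262), which turned to -0.10 and -0.08 when the wild type glands were added to the glands. Epcam, an epithelial adhesion gene, was not called with all tumors (0.91, limma adjusted p = 0.222) and was called without 092T1 (1.21, 2.86e-07). Krt19 was -2.45 and missed the limit (limma adjusted p = 0.00584). Sox10, a factor of neural crest that mammary epithelium also makes, rose by 1.83.

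Genes for making fatty acids rose. Of 11 measured, 7 were called higher and 0 lower, with a median of 1.31. With 4 glands 6 were called, and the weighted fit called 1 with 5 glands and 6 with 4. Scd2, a stearoyl-CoA desaturase gene, ranged over 11.09 to 13.12 in tumors, with a median of 12.49. It was 9.14, 8.81 and 7.43 in the FVB glands and 9.75 and 8.81 in the F1 glands, with no overlap (log2 fold change 3.63, standard error 0.27, limma adjusted p = 5.09e-11, exact p = 3.76e-05). Srebf1, the transcription factor of the pathway, rose by 2.254, malic enzyme Me1 by 2.42, fatty acid synthase Fasn by 1.45 and ATP citrate lyase Acly by 1.58. Of 12 cholesterol genes, 3 rose, among them Dhcr7, which makes cholesterol in the last step of the pathway, by 1.98.

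Enzymes of glycolysis and genes known from the hypoxia response divided, with 6 of 16 higher and 2 lower. Pfkl (phosphofructokinase, liver type) rose by 2.52, Ldha by 1.34 and Pgk1 by 1.49, whereas Pfkfb3, which makes an activator of phosphofructokinase, was lower at -2.24. Hexokinase Hk2 was lower at -1.05 and missed the fold without any 1 of the glands other than FVB gland 3 (-0.94 to -0.98). Egln3, a prolyl hydroxylase of the oxygen response, ranged over 8.79 to 12.81 in tumors, with a median of 11.71. It was 8.97, 8.12 and 7.61 in the FVB glands and 8.19 and 9.17 in the F1 glands, and 19 tumors lay above every gland (log2 fold change 3.14, standard error 0.39, limma adjusted p = 3.56e-07, exact p = 0.000113). Of 12 respiratory chain genes, 6 rose, or 4 with 4 glands. Uqcrc1, a subunit of complex III, ranged over 10.89 to 11.57 in tumors, with a median of 11.13. It was 9.60, 8.67 and 7.97 in the FVB glands and 9.24 and 9.44 in the F1 glands (log2 fold change 2.21, standard error 0.16, limma adjusted p = 4.8e-11, exact p = 3.76e-05). The complex I gene Ndufs1 rose by 1.83 and the complex II gene Sdha by 1.41. Xbp1, a factor of the unfolded protein response and of secretory cells, rose by 1.76.

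Predicted genes left out, the 10 called genes with the largest increases were Tc2n, Car6, Zfp971, Etv1, Tspan8, Scd2, Kcnn4, Etv5, Lrrc26 and Deptor. Tc2n, which encodes a protein with C2 domains, had a lowest value of 5.37, a median of 12.17 and a highest of 13.01 in tumors. It was 7.45, 6.30 and 5.59 in the FVB glands and 8.25 and 7.05 in the F1 glands, so that 19 tumors lay above every gland and 1 below all of them (log2 fold change 4.76, standard error 0.77, limma adjusted p = 1.63e-05, exact p = 0.000376). Car6, a secreted carbonic anhydrase, ranged over 9.10 to 13.75 in tumors, with a median of 11.20. It was 6.84, 5.94 and 6.41 in the FVB glands and 8.35 and 7.79 in the F1 glands, with no overlap (log2 fold change 4.46, standard error 0.61, limma adjusted p = 1.49e-06, exact p = 3.76e-05). The zinc finger gene Zfp971 rose by 3.85, the potassium channel gene Kcnn4 by 3.38 and the channel subunit gene Lrrc26 by 3.34. Tspan8, a tetraspanin, had 3.77 (limma adjusted p = 0.0024) and was not called with 4 glands (3.47, 0.0109).

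Genes of inflammation were among the largest decreases. The 10 largest, predicted genes left out, were Il6, Cxcl2, Ptgs2, Gem, Cxcl1, Ptx3, Tnfaip6, Glycam1, Ccl2 and Ccl3. All 21 genes of a list of cytokines, chemokines and their feedback regulators were called lower with 5 glands and with 4. The median log2 fold change was -3.55 (-4.19 with 4 glands), 20 passed in the weighted fit, and 14 were lower in every tumor than in every gland (3.19% of all probe sets were). Il6, a cytokine of the acute phase response, ranged over 3.86 to 5.09 in tumors, with a median of 4.14. It was 12.35, 11.31 and 6.71 in the FVB glands and 12.73 and 11.84 in the F1 glands. Gland 3 was far below the others and still above every tumor (log2 fold change -6.79, standard error 0.49, limma adjusted p = 3.63e-11, exact p = 3.76e-05), and with 4 glands the log2 fold change was -7.86. Detection calls were not used here, so Il6, near the low end of the scale in tumors, is not shown to be above background there.

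Cxcl2, a chemokine that attracts neutrophils, had a lowest value of 5.29, a median of 5.67, a second highest of 6.02 and a highest of 10.63 in tumors. It was 12.996, 12.33 and 9.34 in the FVB glands and 12.59 and 12.20 in the F1 glands, so that 19 tumors lay below every gland and 1, 159T1, above gland 3 and below the others (log2 fold change -5.99, standard error 0.56, limma adjusted p = 2.88e-09, exact p = 7.53e-05, log2 fold change -6.63 with 4 glands). Ptgs2, the inducible enzyme of prostaglandin synthesis, had a lowest value of 6.07, a median of 6.52, a second highest of 9.86 (159T1) and a highest of 13.19 (092T1) in tumors. It was 13.39, 13.14 and 9.002 in the FVB glands and 13.57 and 13.34 in the F1 glands (log2 fold change -5.37, standard error 0.81, limma adjusted p = 5.87e-06, exact p = 0.000301, log2 fold change -6.24 with 4 glands). Both of these tumors lay within the range of the glands, 159T1 only through FVB gland 3. Cxcl1 was lower at -5.25, Ccl2 and Ccl3, which attract monocytes, at -4.76 and -4.70, and the hyaluronan-binding Tnfaip6 and the pentraxin Ptx3 at -5.05 and -5.14. With 4 glands Ccl2, Ccl3, Tnfaip6 and Ptx3 were at -5.40, -5.36, -5.73 and -5.72. The GTPase gene Gem was at -5.26. Of the NF-kB feedback genes, Tnfaip3 was at -4.09 and Nfkbia at -2.80. The cytokine genes Tnf, Il1b and Csf3 were at -2.62, -3.24 and -2.76, and the signaling inhibitor Socs3 at -2.77.

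The wild type glands also had these genes high. The mean level of the 21 genes was 6.71 to 8.20 in tumors, 11.15 to 11.47 in the 4 glands, 9.01 in FVB gland 3 and 10.55 to 10.80 in the wild type glands. The glands also held more T cell, B cell, lymph node and mast cell message than the tumors, as given below, and the part of those cells in this result was not tested. The mean level of the mast cell list was 5.65 to 6.57 in tumors, 7.99 to 8.39 in the 4 glands, 7.16 in FVB gland 3 and 6.48 to 6.70 in the wild type glands.

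The promoters of the cytokine list were searched on both strands for the kappaB consensus, the site that NF-kB factors bind (3 G, a purine, any base, A or T, 2 pyrimidines and 2 C). It was found for 6 of the 15 members with a window, and for 5.14% of all 27025 genes with a window (4.51% of 32851 windows of this length). A match is a description of these letters only. All 21 genes of the list were called lower, with or without a match. The windows of 3 of the 6 members with a match are shown as examples, with matches on either strand in capitals.
Il6 (chr5:30012864-30013163, plus strand): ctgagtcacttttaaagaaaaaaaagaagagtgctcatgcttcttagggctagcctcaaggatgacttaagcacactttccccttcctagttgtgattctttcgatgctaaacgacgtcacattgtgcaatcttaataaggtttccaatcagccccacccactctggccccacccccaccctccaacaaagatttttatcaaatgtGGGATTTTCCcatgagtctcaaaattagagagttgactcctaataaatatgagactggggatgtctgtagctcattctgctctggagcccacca
Cxcl2 (chr5:90903649-90903948, plus strand): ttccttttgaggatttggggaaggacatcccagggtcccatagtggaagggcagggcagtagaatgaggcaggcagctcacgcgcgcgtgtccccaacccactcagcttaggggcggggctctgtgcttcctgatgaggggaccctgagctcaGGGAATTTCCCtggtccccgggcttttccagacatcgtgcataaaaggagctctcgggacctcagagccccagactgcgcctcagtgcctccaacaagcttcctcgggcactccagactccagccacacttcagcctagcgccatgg
Cxcl1 (chr5:90890995-90891294, plus strand): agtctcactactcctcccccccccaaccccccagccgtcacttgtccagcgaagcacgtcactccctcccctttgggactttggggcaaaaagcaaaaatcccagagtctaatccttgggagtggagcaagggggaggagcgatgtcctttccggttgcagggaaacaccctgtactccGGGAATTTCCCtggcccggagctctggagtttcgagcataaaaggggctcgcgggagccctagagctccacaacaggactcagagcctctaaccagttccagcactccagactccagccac
The window of Il6 held 1 match, and those of Cxcl2 and Cxcl1 held 2 each, which overlapped in all but 1 base. The log2 fold changes were -6.79, -5.99 and -5.25 in that order. The motif was also found for 1 of the 14 cell cycle members with a window. Both lists were chosen with earlier results of these data known, and the part of NF-kB in the decreases was not tested.

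Immediate early genes, which cells switch on within minutes of a stimulus, were lower too. Of 17 measured, 15 were called lower and 0 higher (16 lower with 4 glands, 13 in the weighted fit), with a median of -2.22. Fosb, part of the AP-1 factor, ranged over 6.64 to 7.69 in tumors, with a median of 7.10. It was 10.51, 11.42 and 10.04 in the FVB glands and 11.73 and 12.002 in the F1 glands (log2 fold change -4.03, standard error 0.21, limma adjusted p = 5.88e-14, exact p = 3.76e-05). Atf3, a stress-induced factor, ranged over 7.12 to 9.19 in tumors, with a median of 7.38. It was 11.40, 11.61 and 11.25 in the FVB glands and 11.73 and 11.98 in the F1 glands (log2 fold change -4.01, standard error 0.22, limma adjusted p = 2.02e-13, exact p = 3.76e-05). No tumor reached a gland for either gene. Fos, Jun and Junb, which also encode parts of AP-1, were at -2.68, -2.35 and -2.42. Ier3 (-0.35, limma adjusted p = 0.329) and Nr4a1 (-0.74, 0.0464) were not called with 5 glands, and Nr4a1 was called lower with 4 (-1.21).

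Of 10 heat shock genes, 6 were called lower and 0 higher (7 lower with 4 glands). The inducible chaperone gene Hspa1a ranged over 6.99 to 8.10 in tumors, with a median of 7.62. It was 12.42, 11.95 and 11.16 in the FVB glands and 12.57 and 12.44 in the F1 glands (log2 fold change -4.45, standard error 0.18, limma adjusted p = 5.08e-16, exact p = 3.76e-05), and the 3 wild type glands had 12.47 to 12.93. Hsph1, another chaperone gene, was at -3.22 and the small heat shock gene Hspb1 at -3.10. The mean level of the 17 immediate early genes was 7.91 to 8.97 in tumors, 10.14 to 10.66 in the 4 glands, 9.57 in FVB gland 3 and 10.15 to 10.57 in the wild type glands. No source used here says how the glands were handled before extraction, and the part of handling in the result was not tested.

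**Figure D2:**
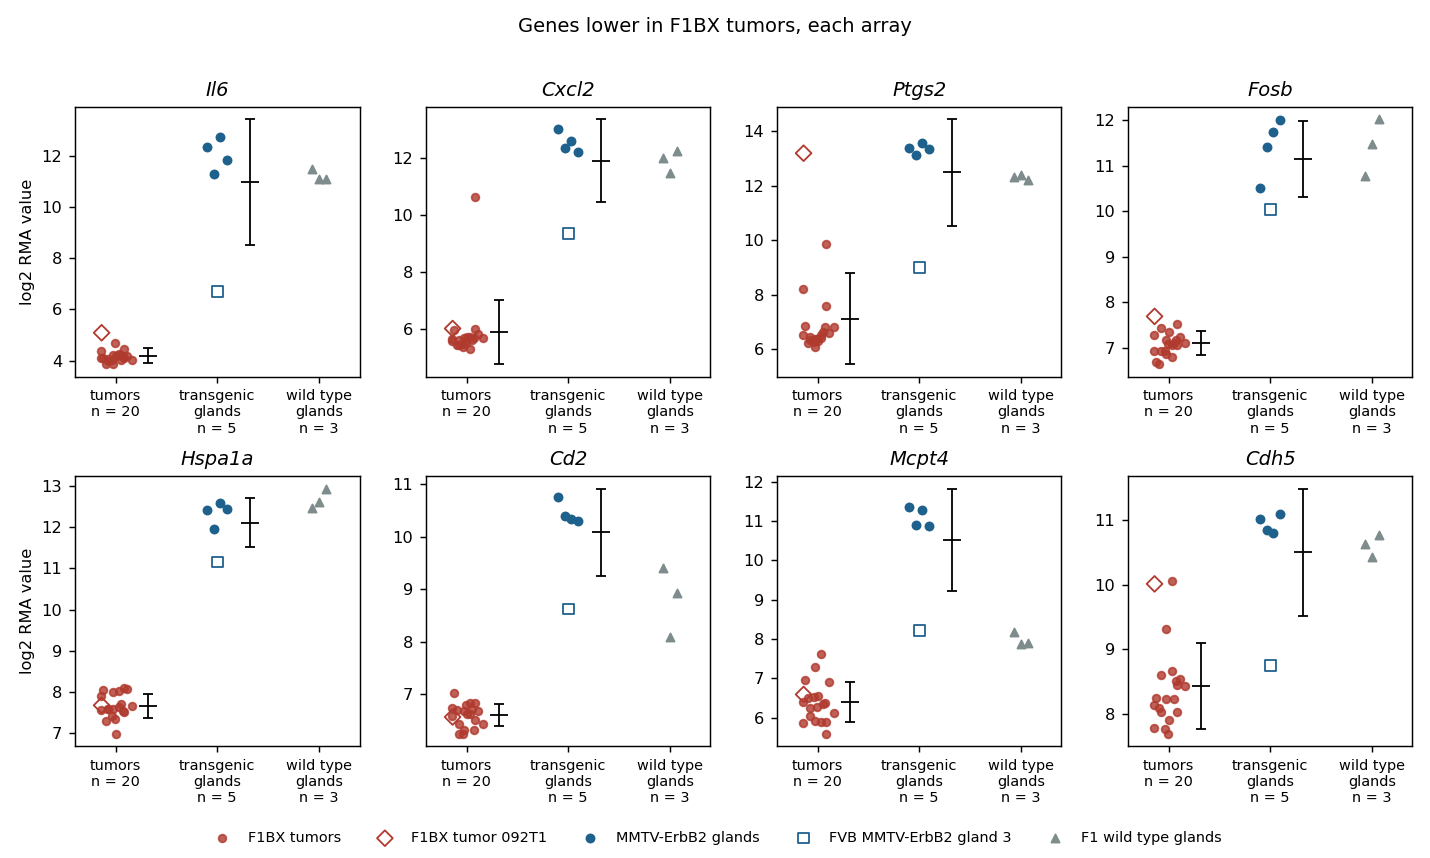
Log2 value (y axis) of 8 genes in each of 20 F1BX tumors, 5 MMTV-ErbB2 glands and 3 F1 wild type glands (x axis), with bars for mean and SD of tumors and transgenic glands. Il6, Fosb, Hspa1a, Cd2 and Mcpt4 are below every transgenic gland in all 20 tumors, and FVB gland 3 (open square) lies below the other 4 transgenic glands for all 8 genes, at 6.71 for Il6.

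All 9 T cell genes measured were called lower with 5 glands, with 4 and in the weighted fit, each with no overlap between tumors and glands. Cd2, a T cell adhesion receptor, ranged over 6.24 to 7.01 in tumors, with a median of 6.62. It was 10.76, 10.41 and 8.62 in the FVB glands and 10.34 and 10.30 in the F1 glands (log2 fold change -3.49, standard error 0.19, limma adjusted p = 2.7e-13, exact p = 3.76e-05). Cd3e, of the T cell receptor complex, was at -1.88 and the coreceptor gene Cd8a at -2.06. Of 9 genes of B cells and plasma cells, 8 fell. Cd79a, part of the B cell receptor, ranged over 5.34 to 6.04 in tumors, with a median of 5.75. It was 9.28, 8.97 and 6.94 in the FVB glands and 8.76 and 8.55 in the F1 glands, with no overlap (log2 fold change -2.78, standard error 0.20, limma adjusted p = 2.91e-11, exact p = 3.76e-05). Ms4a1, which encodes CD20, was at -3.27 and the B cell factor Pax5 at -2.30. The antibody joining chain gene Jchain missed the limit with 5 glands (-2.47, limma adjusted p = 0.00567) and was called with 4 (-2.97). It lay within the range of the glands in 6 tumors, with a highest value of 8.93 in tumors and 6.36 to 11.45 in glands.

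Of 8 genes for lymph node stroma and follicles, 6 were called lower. They included Ccr7 (-3.10), the receptor that guides cells to lymph nodes, Cr2 (-3.19), a complement receptor of B cells and follicular dendritic cells, and the follicle chemokine Cxcl13 (-3.30). With 4 glands Cr2 was at -3.84 and Cxcl13 at -4.05. The mean level of the lymph node list was 6.59 to 7.33 in tumors, 9.08 to 9.48 in the 4 glands, 7.81 in FVB gland 3 and 7.60 to 8.01 in the wild type glands. That of the T cell list was 6.31 to 6.65 in tumors, 8.52 to 8.93 in the 4 glands, 7.66 in FVB gland 3 and 7.50 to 8.34 in the wild type glands. Whether a lymph node was in the dissected glands was not tested.

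Glycam1, a mucin made both by lactating epithelium and by vessels of lymph nodes, had the largest SD among tumors of the genes called, predicted genes left out. It had a lowest value of 6.37, a median of 7.14, a second highest of 12.83 and a highest of 13.50 in tumors. It was 13.16, 13.58 and 12.31 in the FVB glands and 13.32 and 13.44 in the F1 glands. In all, 2 tumors lay within the range of the glands, and 19 lay below the 4 glands other than FVB gland 3 (log2 fold change -4.86, standard error 1.01, limma adjusted p = 0.00034, exact p = 0.000376). The weighted limma fit did not call it with 5 glands (adjusted p = 0.0779). Of 7 mast cell genes, 5 were lower. The protease gene Mcpt4 ranged over 5.59 to 7.62 in tumors, with a median of 6.36. It was 11.35, 10.90 and 8.22 in the FVB glands and 11.27 and 10.86 in the F1 glands, with no overlap (log2 fold change -4.13, standard error 0.34, limma adjusted p = 2.62e-10, exact p = 3.76e-05), and the wild type glands had 7.87 to 8.19. Cpa3, another protease gene, was at -3.34 (-3.98 with 4 glands) and Hdc, which makes histamine, at -2.61.

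Of 6 MHC class II genes, 2 were called lower, Cd74 (-2.40), the invariant chain, and the activator gene Ciita (-1.39), and 4 were with 4 glands. Of 12 macrophage genes 2, the complement genes C1qa (1.25) and C1qc (1.29), were called higher and were lost with 4 glands (limma adjusted p = 0.00507 and 0.0058), and the scavenger receptor gene Marco was lower at -2.47. Of 10 neutrophil genes, limma called 0 with either 5 or 4 glands (7 and 3 had an unadjusted p under 0.05), and the SAM statistic called 1 with 5. FVB gland 3 had S100a9, a neutrophil calcium-binding protein gene, at 10.99, against 6.15 to 8.79 in tumors and 6.42 to 7.41 in the 4 glands. Of 12 interferon genes, 3 were called lower, among them the chemokine Cxcl10 at -3.60 (-4.29 with 4 glands).

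Some stromal genes were lower in tumors, with wide spread. Of 11 endothelial genes, 6 were called lower with 5 glands and 8 with 4. Cdh5, the cadherin of endothelium, had a lowest value of 7.70, a median of 8.25 and a highest of 10.05 in tumors. It was 11.01, 10.84 and 8.75 in the FVB glands and 10.80 and 11.08 in the F1 glands, and 3 tumors were higher than gland 3 and below the other glands (log2 fold change -2.06, standard error 0.34, limma adjusted p = 2.35e-05, exact p = 0.000301). The adhesion gene Pecam1 was at -1.92 and the claudin gene Cldn5 at -1.59, and Kdr, a VEGF receptor, was called only with 4 glands (-1.27). Of 14 fibroblast and matrix genes, 5 were called lower (4 with 4 glands, 1 in the weighted fit with 5). The matrix proteoglycan gene Dcn (decorin) had a lowest value of 6.09, a median of 9.90 and a highest of 12.98 in tumors. It was 13.54, 13.25 and 10.53 in the FVB glands and 13.69 and 13.61 in the F1 glands, and 6 tumors were higher than gland 3 and below the other glands (log2 fold change -3.17, standard error 0.81, limma adjusted p = 0.00262, exact p = 0.00117, log2 fold change -3.77 with 4 glands). It was lost when FVB gland 1, FVB gland 2, F1 gland 1 or F1 gland 2 was left out, with limma adjusted p-values of 0.00939, 0.0089, 0.00985 and 0.0103, and was called without FVB gland 3 (0.000981). Lum (lumican) was at -2.95, Thy1, a fibroblast surface marker, at -1.49 and Dpt (dermatopontin) at -3.63 (Lum -3.82 and Dpt -4.26 with 4 glands), whereas the collagen gene Col1a1 was not called (-0.96, limma adjusted p = 0.0754).

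Of 12 metalloproteinase and inhibitor genes, 5 were lower. They included the protease gene Mmp3 (-2.68) and the inhibitor genes Timp2 (-2.09) and Timp3 (-1.94), and 0 passed in the weighted fit with 5 glands. Of 11 basal and myoepithelial genes, 4 were lower with 5 glands and 2 with 4. The smooth muscle genes Myh11 and Tagln were at -2.03 and -1.37, and both were called with 4 glands. The basal keratin genes Krt14 (-1.92, and -1.49 with 4 glands) and Krt17 (-1.83 and -1.44) were called only with 5. The basal list had a mean level of 6.84 to 8.55 in tumors, 7.81 to 8.85 in the 4 glands, 9.16 in FVB gland 3 and 10.06 to 10.24 in the wild type glands. Of 10 adipocyte genes, 2 were called lower, the lipid carrier gene Fabp4 (-2.245) and the fat cell factor Pparg (-1.08). Adipoq, the adipocyte hormone gene, averaged 6.17 ± 1.04 in tumors and 5.86 ± 0.20 in glands (SD, n = 20 and 5) and was not called. This defining fat gene was in the lower part of the scale in the glands.

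**Figure D3:**
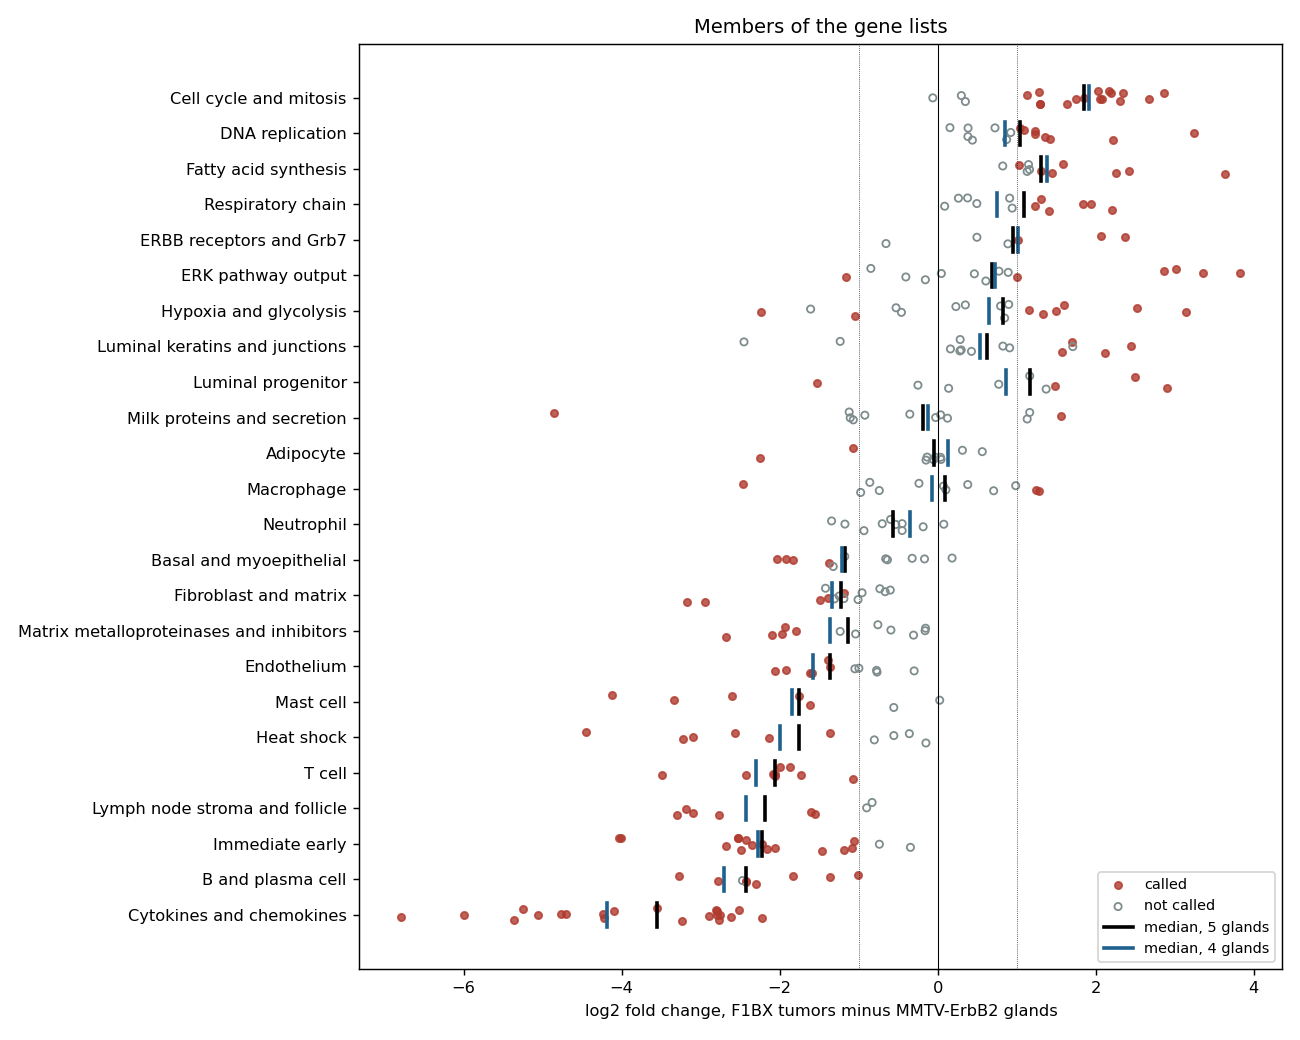
Log2 fold change (x axis, F1BX tumors minus MMTV-ErbB2 glands, 5 glands) of each measured gene of 24 lists (y axis), filled where called and open where not, with bars for the list medians with 5 and with 4 glands. Cell cycle genes have a median of 1.85 and cytokine and chemokine genes one of -3.55.

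The weighted fit with 5 glands left 4 calls of 6 for ERK output, 1 of 3 for PI3K, AKT and mTOR, 1 of 5 for other receptor kinases, 6 of 8 for DNA replication, 6 of 6 for the respiratory chain, 5 of 8 for glycolysis and hypoxia, 1 of 6 for endothelium, 1 of 4 for basal genes, 8 of 8 for B and plasma cells, 5 of 6 for lymph node, 5 of 5 for mast cells and 6 of 6 for heat shock. With 4 glands it called 6, 3, 5, 7, 4, 8, 8, 2, 8, 6, 5 and 7 in the same order.

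Of 15 Wnt genes, 1 was lower, the factor gene Lef1 (-1.95), which lymphocytes also express. Of 13 Notch genes, 2 were higher and 1 lower. The target gene Hey1 rose by 2.16 and was lost without any 1 of the 5 glands (limma adjusted p = 0.00616 to 0.0126), and the ligand gene Jag1 was lower at -2.12. Of 18 genes of the TGF-beta and BMP pathway, 1 was higher and 4 were lower, among them the ligand gene Bmp2 at -2.20. The ligand gene Tgfb3 ranged over 10.33 to 12.75 in tumors, with a median of 11.97. It was 8.84, 8.43 and 8.51 in the FVB glands and 9.29 and 9.06 in the F1 glands, with no overlap (log2 fold change 3.02, standard error 0.26, limma adjusted p = 7.78e-10, exact p = 3.76e-05). Of 12 milk and secretion genes, 1 was higher, Xdh, which acts in the secretion of milk fat, at 1.56, and Glycam1 was lower. The casein gene Csn2 had a lowest value of 6.87, a median of 13.16 and a highest of 13.92 in tumors and was at 12.40 to 13.29 in the 5 glands.

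The tumors differed among themselves. Over the 4258 called probe sets, the position of each tumor was taken between the mean of the tumors (1) and the mean of the glands (0). The median position was 0.75 in 092T1 and 0.94 to 1.16 in the other 19. In 092T1 the epithelial genes Erbb3, Epcam, Esrp1 and Elf5 were lowest, at 6.22, 6.39, 6.12 and 6.42, where the next lowest tumors had 11.34, 12.18, 10.10 and 10.52. Erbb2 was 8.32 there and 10.31 in 076T1, the next lowest. In the same tumor Pdgfra, Mmp9 and Mmp13 were highest, at 13.56, 12.29 and 12.20, where the next highest had 9.90, 7.20 and 9.40. Its cell cycle list was second highest, at a mean level of 8.99, and its list of luminal keratins and junctions was lowest, at 7.78 (9.45 in the next lowest tumor). Of the paired keratin genes, Krt18 was lowest there (10.79, 11.43 in the next), and Krt8 lay within the range of the other tumors. Leaving 092T1 out gave 2762 probe sets higher and 1711 lower, in place of 2644 and 1614, and a limma adjusted p of 2.97e-08 for Erbb2.

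Other tumors stood out for single lists. The mean level of 7 skeletal muscle genes was 10.91 in 074T1 and 9.87 in 025T1, against a median of 6.75 over the 20 tumors, and Acta1 (skeletal actin) was 12.68 in 074T1. The basal keratin genes Krt5 and Krt14 were highest in 076T1, at 11.86 and 11.10, where the medians were 6.76 and 7.16. The next highest tumor for both was 182T1, at 10.36 and 9.91. The Wnt target Axin2 was also highest in 076T1 (10.42), with 9.10 in 035T1R, 8.35 in 182T1 and a median of 7.24. In 159T1 the cytokine list was highest at 8.20, with Il1b at 10.64 and Ccl3 at 12.73, and the neutrophil list was also highest, at 7.23 against a median of 6.14. In 149T1 the fibroblast list was lowest at 7.14 and the interferon list highest at 9.82. The cell cycle list was highest in 007T1 (9.31) and lowest in 074T1 (8.10), still above the glands. The milk gene Wap (whey acidic protein) was 10.10 to 11.81 in 073T2, 076T1, 171T2 and 182T1, its 4 highest tumors, and the same 4 had the highest Glycam1, at 11.62 to 13.50. Csn2 was 13.33 to 13.85 in these 4 and highest in 074T1 (13.92). The milk list was highest in 182T1 (11.25), 171T2 (10.84) and 076T1 (10.73), followed by 074T1 (10.67), 152T1 (10.52) and 073T2 (10.48).

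**Figure D4:**
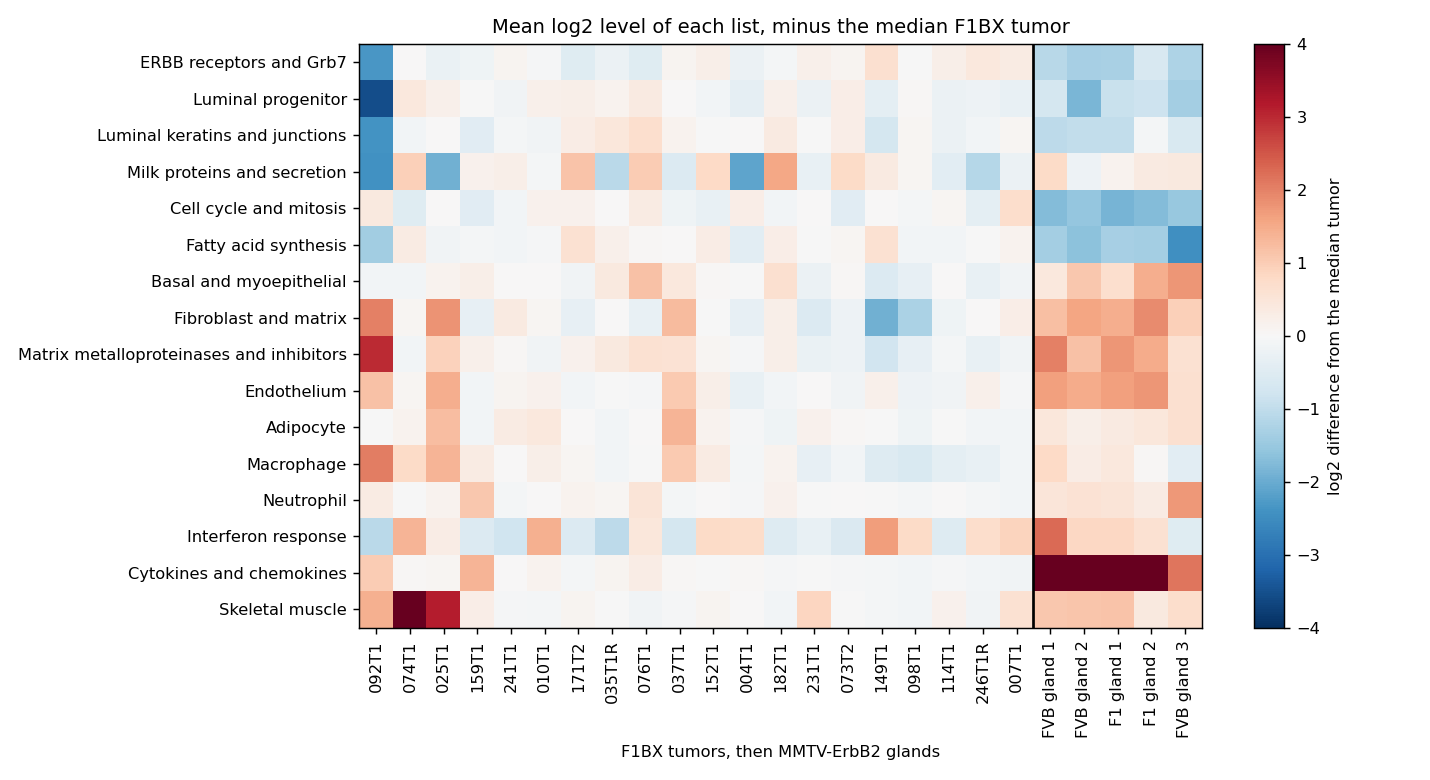
Mean log2 level of 16 gene lists (y axis) in each of 20 F1BX tumors, ordered by their position between the tumor mean and the gland mean, and in 5 MMTV-ErbB2 glands (x axis), as the difference from the median tumor (colors end at -4 and 4). Tumor 092T1 is lowest for the luminal progenitor list, at 7.35, and highest for metalloproteinases, at 10.73, and the 4 glands have the cytokine list at 11.15 to 11.47.

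Of the 20 tumors, 2 were on arrays named as repeats, 035T1R and 246T1R, whose first arrays lay in the set with the wider spread. The repeat and first array correlated at 0.93 for 035T1 and 0.96 for 246T1 across probe sets. Among the 4258 called probe sets, 14.5% were 2-fold or more apart on the arrays of 035T1 and 8.0% on those of 246T1, and over all probe sets 20.2% and 10.2% were. Whether the 2 array sets were normalized together is not known, and its part in these differences was not tested. Without both repeats, 4120 probe sets were called. The 6 F1 tumors of the same array set were not compared with the F1BX tumors. Erbb2 was 8.32 to 12.60 in the F1BX tumors and 9.72 to 12.53 in the F1 tumors, and Il6 was 3.86 to 5.09 in the F1BX tumors and 3.99 to 4.45 in the F1 tumors.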

How the data were processed

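Total RNA was hybridised to Affymetrix mouse gene 1.0 ST arrays. Per the labels and methods, the authors normalized by RMA, and the deposited values are log2 intensities. The normalization was done before deposit and was kept. Of 35556 probe sets, 21789 had 1 gene symbol in the platform annotation, 1621 several and 12146 none, and only the first kind was named. For genes with several, the one with the highest mean level in the 25 arrays was used, and in 155 of 999 such genes the probe sets differed in call. Of the 9 named here, these were Insr and Top2a.

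Tumors were compared with glands in limma 3.58.1 (R 4.3.3) over all probe sets with Benjamini-Hochberg adjustment, with calls at a false discovery rate up to 0.005 and folds from 2 upward. The methods named SAM, which was run here with 100 permutations as an alternative, beside array weights, other normalizations, a filter (log2 of 6 in at least 5 arrays) and other sets of arrays. The fits without 092T1 alone and without FVB gland 3 with weights were chosen after seeing the data. Limma and SAM were tried on simulated data with the spread of the tumors in both groups. A wider spread among glands was not simulated. For 29 genes an exact two-sided permutation test of the means was run. The members and lists were chosen with earlier results of these data known, and lists have no test. Named are Erbb2, the 10 largest changes in each direction, the 5 called genes with the largest SD among tumors, and list genes. These rankings left out predicted genes, by symbols such as Gm with a number, Rik, LOC, olfactory receptors, microRNAs, small RNAs and accession-like names. Tables were prepared in Python 3.11.15 with pandas 2.3.3 and NumPy 2.4.6. The number of arrays limits the precision.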

Additional observations from a re-analysis of the deposited data

Results flagged for a closer look

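In the 5 transgenic glands, 47 of the genes named had 1 gland far from the rest, with a gap to the nearest other gland of more than 0.71 of the whole range. Chance alone gives this in about 1 in 20 such groups. It was met by 6076 of 19938 genes (30.5%), and in 5909 of these the gland was FVB gland 3, as it was for 46 of the 47. The log2 values of FVB gland 3 follow in brackets. Among genes of inflammation and the immediate early response, it lay below the other 4 for Il6 (6.71), Cxcl2 (9.34), Ptgs2 (9.0), Gem (9.55), Cxcl1 (10.86), Ptx3 (9.40), Tnfaip6 (9.22), Ccl2 (9.49), Ccl3 (9.90), Tnfaip3 (10.27), Nfkbia (11.53), Nr4a1 (9.82) and Cxcl10 (8.65). Among lymphocyte, lymph node and mast cell genes, it lay below the other 4 for Cd2 (8.62), Cd3e (8.53), Ccr7 (9.05), Cxcl13 (8.06), Mcpt4 (8.22) and Cpa3 (6.81). Among stromal and endothelial genes, it lay below the other 4 for Dcn (10.53), Lum (6.56), Dpt (9.0), Pdgfra (9.04), Axl (10.24), Timp3 (9.07), Pecam1 (8.30) and Cdh5 (8.75). Among signaling genes, it lay below the other 4 for Egfr (8.39), Spred1 (8.25), Pik3r1 (8.39), Rictor (8.27), Insr (7.43), Myc (9.20) and Kit (7.68). Among genes of the cell cycle, p53 and DNA synthesis, it lay below the other 4 for Kif11 (5.50), Rrm1 (7.09) and Ccng1 (6.69). Among genes of the cell cycle, p53 and DNA synthesis, it lay above the other 4 for Plk1 (7.29). Among metabolic genes, it lay below the other 4 for Hk2 (8.64), Pfkfb3 (10.08), Ndufs1 (6.95) and Sdha (7.88). Among other genes, it lay below the other 4 for Hsph1 (10.85). Among other genes, it lay above the other 4 for Sox10 (9.70), Lrrc26 (8.05) and S100a9 (10.99). In the remaining case, the complement gene C1qc, FVB gland 1 stood apart at 9.02. What sets FVB gland 3 apart was not tested.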

How the results depend on the processing

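Of the 4258 probe sets called (2644 higher in tumors and 1614 lower), 2325 were called with array weights by group (1389 and 936), and 14649 at an adjusted p under 0.05 with no fold (6743 and 7906). With the F1 glands alone 1349 were higher. Every other setting gave counts within 1.5 times: SAM 4617, a filter on dim probe sets 4174, quantile normalization 4225, arrays centred on their medians 4359, FVB glands alone 4545, all 8 glands 4261, no repeat arrays 4120, and no 092T1 and 076T1 4513. Leaving out each gland in turn gave 3966 to 4403 in all, 1999 to 2836 higher and 1399 to 2007 lower. Settings chosen after the data were seen gave 4473 without 092T1 and 4093 without FVB gland 3 and with weights.

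Among the genes named, the weights ended 55 calls with 5 glands and 8 with 4, the F1 glands alone 44 and the FVB glands alone 25. The calls ended by the weights with 5 glands were those of Erbb2, Erbb3, Elf5, Kit, Tc2n, Car6, Ptgs2, Glycam1, Dcn, Cdh5, Tspan8, Lrrc26, Deptor, Dpt, Grb7, Hbegf, Spred1, Dusp5, Pik3cb, Pik3r1, Ddr1, Pdgfra, Axl, Pcna, Cdkn2c, Ccng1, Prom1, Cd14, Cldn3, Cldn7, Esrp1, Xdh, Sox10, Srebf1, Me1, Fasn, Acly, Hk2, Pfkfb3, Xbp1, Cxcl13, Cd74, C1qa, C1qc, Lum, Mmp3, Timp2, Timp3, Pecam1, Krt14, Krt17, Tagln, Fabp4, Pparg and Hey1. Leaving out F1 gland 1, F1 gland 2, FVB gland 1, FVB gland 2 or FVB gland 3 ended 6, 11, 8, 8 and 12. Beside those given above, these were Cd14 without F1 gland 1 (limma adjusted p = 0.00669) or FVB gland 1 (0.0121), Prom1 (0.00503) and Mmp3 (0.00764) without FVB gland 1, and Timp2 without F1 gland 2 (0.00517). Without F1 gland 2, Pcna (0.013), Cdkn2c (0.00743), C1qa (0.00947), Krt14 (0.0149) and Krt17 (0.00642) were also lost. Without FVB gland 2, Tspan8 (0.0131), C1qa (0.00635) and Krt14 (0.0102) were. Without F1 gland 2, Jchain (0.00272) and S100a9 (0.00371) were called. Without 092T1, Spred1 (just short of the fold) and Krt14 (0.00591) were lost and Mmp13 (0.00492) was called, and without the repeat arrays Grb7 (0.97), Pcna (0.00639) and Krt14 (0.00664) were lost. Leaving out each gland in turn gave Ccne1 -0.21 to 0.19, and it turned to 0.01 with centred arrays, 0.32 with the F1 glands alone, 0.02 with all 8 glands and 0.19 without FVB gland 3, with or without weights. Krt8 and Krt18 turned to -0.10 and -0.08 with all 8 glands. The cause was not tested. No paired analysis was possible, because no gland was from an F1BX mouse. The number of arrays, above all of 5 glands, limits the precision, and a probe set near the low end of the scale has no shown signal above background.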
